A study of Rattus norvegicus with 6 samples.

Results

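The interleukin genes of rat sciatic nerve were chosen by name. They are the rows of the count table whose symbol starts with Il and a digit, without Il6, Il6st, Il11 and Il34, which gave 77 of the 29884 genes. By name or textbook role they comprise 33 ligands, 39 receptor chains and 3 antagonists or binding proteins (Il1rn, Il18bp and Il36rn). Il22ra2, a soluble binding protein, was counted by its name among the receptor chains. The rest are Il16, a chemoattractant for CD4+ cells, and Il4i1, a secreted amino acid oxidase that is no interleukin. RNA was sequenced from bulk nerve of wild type rats whose sciatic nerve had been loosely tied, the chronic constriction injury (CCI) model of neuropathic pain. Of the 6 libraries, 3 came from injured nerve left untreated and 3 from injured nerve treated with the PLLA-PCL-RVC conduit, a nerve sleeve of piezoelectric material that also holds the local anaesthetic ropivacaine. All 6 nerves were injured, so no group shows the level in intact nerve, and conduit and drug were given together. Age, sex and time after injury are not given in the sources used here, nor whether each library is 1 animal, so each p-value is measured against library spread that may be technical.

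Interleukins are secreted or membrane-held messengers of immune cells and of the tissue cells around them. A ligand signals by joining chains of a receptor, many of which are shared: the gamma chain (Il2rg) serves several receptors, Il10rb serves the interleukin-10 group and Il17ra pairs with other Il17r chains. The interleukin-1 family acts through Toll-like adaptors on NF-kappaB, while most other families act through JAK kinases and STAT factors, and antagonists and decoy receptors hold the signal back. In injured nerve, interleukins come from Schwann cells, fibroblasts and the macrophages that clear myelin debris.

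Values below are CPM, counts scaled to a common library size by TMM, given for replicates 1, 2 and 3 of a group in that order. Log2 fold changes are conduit minus untreated with their standard error (SE), other values after ± are SD over the 3 libraries of a group, and p-values are from the quasi-likelihood test of edgeR, adjusted by Benjamini-Hochberg over all 15464 genes tested. A gene is said to rise or fall where the adjusted p was under 0.05. Library totals ran from 38401951 to 42225086 counts. The labels carry 5 batch numbers and no batch holds both groups, so batch and treatment cannot be told apart. Schwann cell and myelin markers, the defining genes of this tissue, were present in all libraries and all 10 were higher in conduit nerves, with summed levels of 158696 to 206500 CPM against 11469 to 26827 CPM. Skeletal muscle markers summed to 10896 CPM in untreated replicate 1 and to at most 78.8 CPM elsewhere, and the tests of the interleukin genes and the counts of the pathway lists were repeated without that library.

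Of the 77 genes, 15 had no count in any library, 16 had counts but were too low to test and 46 were tested. Among the 46 tested, 24 fell and 8 rose in conduit nerves. That is 52.2% lower and 17.4% higher, beside 26.2% lower and 24.0% higher over all genes tested, where 50.2% passed in either direction. Those shares of all genes are also the ones to set beside the counts of families and lists below. With library totals in place of TMM, 30 fell and 7 rose, and that scaling moved the median log2 fold change of all genes from -0.04 to -0.43 and the lower share of all calls from 52.2% to 74.1%. The median log2 fold change of the 46 was -0.93. These counts describe only genes that passed the low-count filter. For 4 of them (Il10, Il1rl2, Il36b and Il25) the filter's level of 0.24 CPM was reached in 1 group only, so a difference was built into their being tested. For 35 of the 46, or 76.1%, every library of 1 group lay above every library of the other, beside 61.7% of all genes tested.

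**Figure D1:**
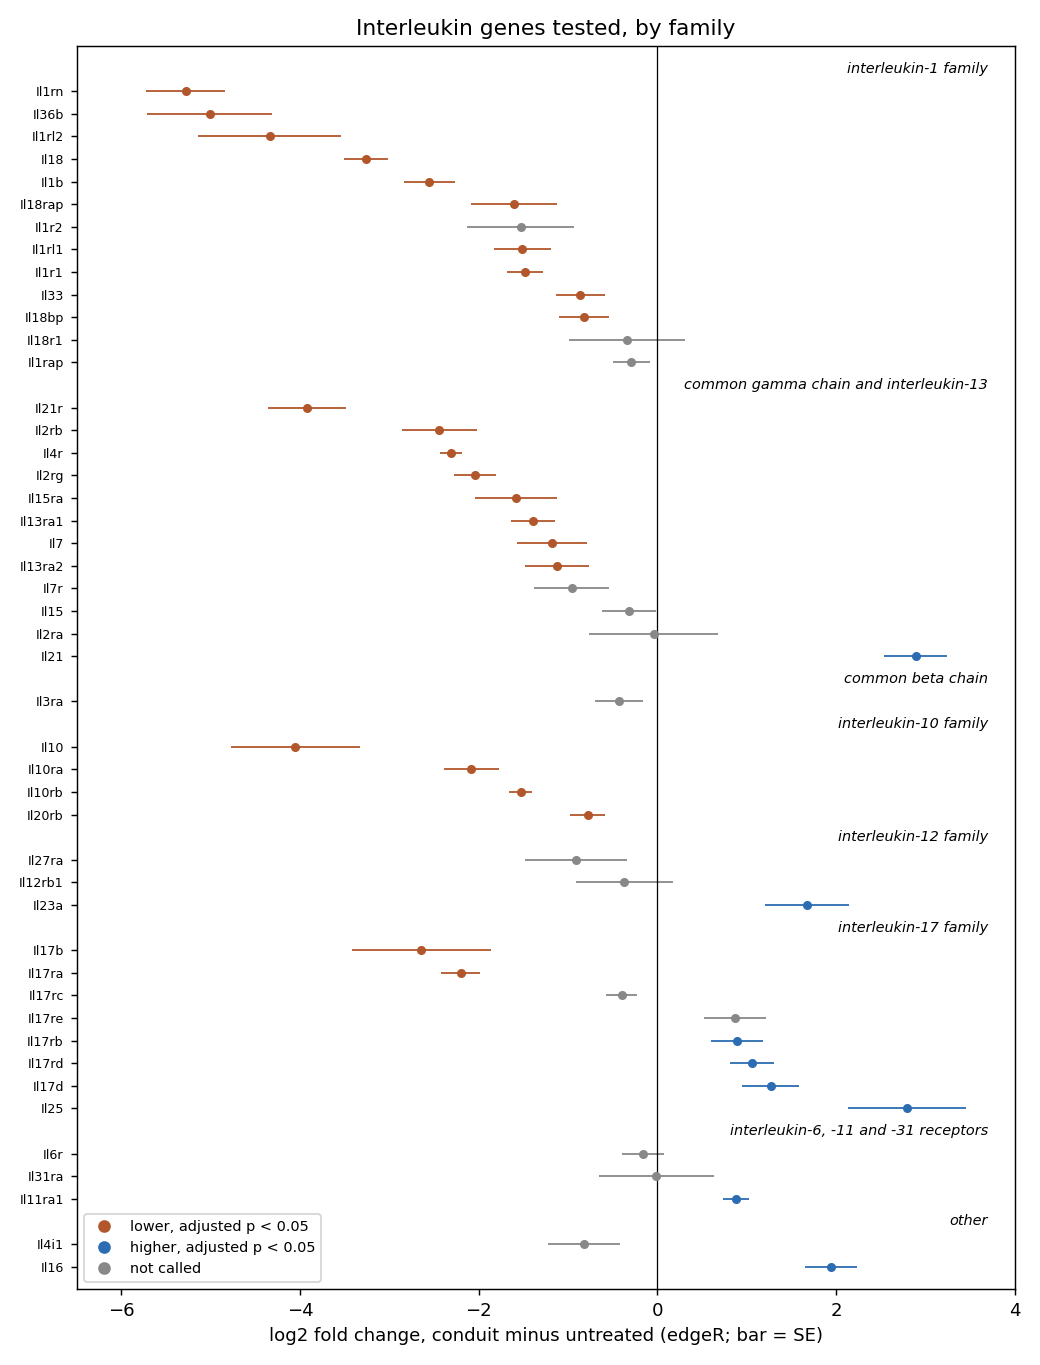
Log2 fold change (conduit minus untreated, bars are SE) of the 46 interleukin genes tested, in order of change within each family. The interleukin-1, gamma chain and interleukin-10 groups lie mostly to the left of 0, down to Il1rn at -5.28, while Il21, Il25, Il16 and most of the interleukin-17 family lie to the right.

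The stretches before the start of transcription are shown for the genes with at least 5 CPM in 1 group that fell the most (Il1rn, Il21r, Il18 and Il1b) and rose the most (Il16 and Il17d). Each line gives the 250 bases upstream of the RefSeq start in the GRCr8 build, 5′ to 3′ on the gene's strand, and a RefSeq window was found for 61 of the 77 genes. The motifs searched on both strands were AP-1 as TGANTCA, PU.1, a macrophage factor, as GAGGAAGT, and STAT as TTCNNNGAA. Capitals mark a match.
Il1rn (chr3:27520072-27520321, plus strand): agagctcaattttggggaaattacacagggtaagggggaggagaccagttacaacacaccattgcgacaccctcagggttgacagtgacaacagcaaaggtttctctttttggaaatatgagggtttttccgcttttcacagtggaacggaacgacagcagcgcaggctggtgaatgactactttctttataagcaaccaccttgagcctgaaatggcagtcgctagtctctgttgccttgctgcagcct
Il21r (chr1:189598503-189598752, plus strand): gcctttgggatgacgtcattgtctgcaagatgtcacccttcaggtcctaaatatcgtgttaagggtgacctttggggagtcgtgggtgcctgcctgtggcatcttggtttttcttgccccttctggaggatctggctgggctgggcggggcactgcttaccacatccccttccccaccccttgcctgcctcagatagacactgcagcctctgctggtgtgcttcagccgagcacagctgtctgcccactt
Il18 (chr8:59801822-59802071, plus strand): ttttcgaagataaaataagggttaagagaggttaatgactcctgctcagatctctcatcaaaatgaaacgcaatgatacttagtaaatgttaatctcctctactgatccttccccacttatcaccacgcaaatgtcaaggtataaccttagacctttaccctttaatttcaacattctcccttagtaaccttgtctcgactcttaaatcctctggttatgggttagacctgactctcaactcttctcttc
Il1b (chr3:137036582-137036831, minus strand): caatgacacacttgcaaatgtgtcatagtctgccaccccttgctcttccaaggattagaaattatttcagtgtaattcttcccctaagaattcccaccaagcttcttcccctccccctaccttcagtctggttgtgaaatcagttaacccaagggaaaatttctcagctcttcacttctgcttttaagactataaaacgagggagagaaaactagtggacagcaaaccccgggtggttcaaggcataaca
Il16 (chr1:147116743-147116992, minus strand): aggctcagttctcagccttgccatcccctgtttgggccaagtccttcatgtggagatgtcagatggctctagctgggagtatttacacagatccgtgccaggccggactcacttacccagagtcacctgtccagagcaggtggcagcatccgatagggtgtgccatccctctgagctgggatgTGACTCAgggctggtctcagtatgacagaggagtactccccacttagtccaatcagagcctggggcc
Il17d (chr15:35786648-35786897, plus strand): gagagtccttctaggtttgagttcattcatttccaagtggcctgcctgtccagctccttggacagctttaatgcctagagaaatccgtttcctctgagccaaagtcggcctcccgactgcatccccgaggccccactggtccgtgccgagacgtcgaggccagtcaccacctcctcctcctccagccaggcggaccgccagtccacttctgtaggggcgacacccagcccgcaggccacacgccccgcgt
The only match among these 6 windows was an AP-1 motif, TGACTCA, before Il16, starting 67 bases upstream. Over all 33469 RefSeq windows of this length, 6.34% held the AP-1 motif, 2.04% the PU.1 motif and 7.67% the STAT motif. Of the windows compared with the RefSeq gene models, 58.6% lay at the start of the model. These shares are per window, while a gene below counts if any of its windows matched. Among the 18 genes with a window that fell, 1 held AP-1 (Il15ra), 0 held PU.1 and 1 held STAT (Il36b). Among the 6 that rose, 1 held AP-1 (Il16), 1 held PU.1 (Il23a) and 0 held STAT. A missing match says only that these letters are not in this window.

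The interleukin-1 family had the most members lower. Of its 13 tested members 10 fell and 0 rose (0 also at an unadjusted p under 0.05, with DESeq2 and with limma on log2(FPKM + 1)), and the median was -1.53. Among the 10, Il1rl2 and Il36b reached the filter's level of 0.24 CPM in 1 group only. The ligands of the family come first. Il1b, the secreted inflammatory ligand, was at 11.1, 6.52 and 7.73 CPM in untreated nerves and at 1.46, 1.64 and 1.23 CPM in conduit nerves. The conduit libraries lay close together and far below the untreated ones, with a log2 fold change of -2.55 ± 0.29 (adjusted p = 0.000422). Il18, which drives interferon gamma release from lymphocytes, was at 21.6, 23.8 and 20.8 CPM untreated and at 2.58, 2.80 and 1.54 CPM in conduit nerves. All untreated libraries were alike and conduit replicate 3 was the lowest (-3.26 ± 0.25, adjusted p = 0.000118). In the RefSeq gene models Il18 overlaps Bco2, a carotenoid-cleaving enzyme, which fell by 2.94 on the log2 scale from 6.52 to 0.845 CPM. Whether the counting used strand is not given in the sources used here, so reads in such an overlap cannot be told apart.

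Il33, a nuclear alarmin of fibroblasts, endothelium and other barrier cells, had the highest level per length of the 46 genes in untreated nerves, at 58.7 ± 3.19 FPKM, with Il4r next at 39.4 ± 1.97 FPKM. It was at 398, 403 and 379 CPM in untreated nerves and at 129, 263 and 259 CPM in conduit nerves. The groups did not overlap, and conduit replicate 1 stood well below the other conduit libraries (-0.86 ± 0.27, adjusted p = 0.0306). The call was lost without untreated replicate 1, 2 or 3 (adjusted p = 0.0608, 0.0626 and 0.0567). The summed endothelial markers were at 1153 to 1460 CPM in untreated nerves and at 915, 987 and 1096 CPM in conduit nerves, lowest in replicate 1. Of that list 4 of 10 fell and 1 rose, beside 26.2% lower and 24.0% higher over all genes tested. The summed fibroblast and perineurial markers overlapped between the groups, at 8687 to 17733 CPM untreated and at 16812, 30267 and 31706 CPM in conduit nerves, again lowest in replicate 1. Of these 10 genes 4 rose and Pdgfra, which marks fibroblasts, fell (-0.95 ± 0.31, adjusted p = 0.035). None of either list was at 0, and their part in the Il33 values was not tested. Il33 made up 32.3% to 35.4% of all interleukin gene counts in untreated libraries and 22.6%, 31.8% and 35.3% in conduit replicates 1, 2 and 3.

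Il36b, an epithelial ligand of the family, was at 0.972 ± 0.582 CPM in untreated nerves (SD, n = 3) and at 1 count in each conduit library. The pooled ratio of untreated to conduit CPM was 35.5, with an exact Poisson 95% interval of 12.2 to 172 (adjusted p = 0.00104). That interval covers only the counting error of the conduit counts, with the untreated level held fixed. The RefSeq gene model of Il36b overlaps those of Il1rn, Il36rn and Il1f10, so the source of these few reads is uncertain. Without untreated replicate 1 its log2 fold change went from -5.01 to -4.40. Il1a, the cell-bound partner of Il1b, had 3 counts in all libraries together and Il1f10 had 6, while Il36a and Il36g had none.

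The antagonists of the family fell as well. Il1rn, the receptor antagonist that competes with Il1b, was at 24.2, 31.9 and 11.0 CPM in untreated nerves and at 0.605, 0.509 and 0.602 CPM in conduit nerves. Untreated replicate 3 was the lowest of its group and still far above every conduit library (-5.28 ± 0.44, adjusted p = 0.000142). Per kilobase of gene, Il1rn was the more abundant of the pair in untreated nerves, at 11.8 ± 5.83 FPKM beside 7.31 ± 1.85 FPKM for Il1b, a difference within the spread of the libraries. In conduit nerves the order was the opposite, with 0.230 ± 0.0273 FPKM for Il1rn and 0.957 ± 0.108 FPKM for Il1b (SD, n = 3). Il18bp, a secreted trap for interleukin-18, was at 15.8, 8.05 and 11.4 CPM untreated and at 5.41, 7.01 and 7.51 CPM in conduit nerves. The gap between the groups was narrow (-0.82 ± 0.28, adjusted p = 0.0400), and the call was lost in 6 of 16 alternatives, among them without untreated replicate 1 (-0.55, adjusted p = 0.114).

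Among the 7 tested receptor chains of the family 4 fell. Il1r1, the signalling receptor for Il1b, was at 56.7, 77.4 and 65.6 CPM in untreated and at 18.5, 29.2 and 23.9 CPM in conduit nerves. Every conduit library was below every untreated one (-1.48 ± 0.20, adjusted p = 0.000910). Il1rl1, the receptor for interleukin-33, was at 23.0, 24.9 and 32.7 CPM untreated and at 5.58, 8.90 and 13.7 CPM in conduit nerves. Conduit replicate 3 was the highest of its group (-1.51 ± 0.32, adjusted p = 0.00665). Il1rl2, the receptor for interleukin-36 ligands, was at 1.32, 0.807 and 1.89 CPM untreated and at 0.0550, 0 and 0.131 CPM in conduit nerves. Its 7 conduit counts leave the size imprecise (-4.34 ± 0.80, adjusted p = 0.00361, and -5.40 without conduit replicate 3). Il18rap, the accessory chain of the interleukin-18 receptor, was at 4.04, 3.05 and 3.20 CPM untreated and at 0.522, 1.95 and 0.916 CPM in conduit nerves. The groups were apart, but conduit replicate 2 was well above the rest of its group (-1.60 ± 0.48, adjusted p = 0.0275). Leaving out untreated replicate 1 (adjusted p = 0.0679), untreated replicate 3 (0.0515), conduit replicate 1 (0.0639) or conduit replicate 3 (0.0847) ended its call, and without conduit replicate 2 it was at -2.23.

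Il1r2, a decoy receptor that binds Il1b without signalling, did not pass, although its groups did not overlap. It was at 3.26, 2.16 and 2.32 CPM untreated and at 0.247, 0.848 and 1.57 CPM in conduit nerves (-1.53 ± 0.60, adjusted p = 0.0667). It passed as lower with DESeq2 (adjusted p = 0.0246), with library totals (0.0304), with each of the 3 limma fits on FPKM and without conduit replicate 3 (-2.19, adjusted p = 0.0252). Il1rap, the accessory chain that several receptors of the family need, was at 40.7 ± 11.5 CPM untreated and 33.4 ± 4.23 CPM in conduit nerves (-0.29 ± 0.21, adjusted p = 0.293) and passed only with library totals (-0.68, adjusted p = 0.0328). Il18r1, the ligand-binding chain for interleukin-18, was at 0.883 ± 0.176 and 0.697 ± 0.601 CPM (-0.34 ± 0.65, adjusted p = 0.693). Il1rapl1 and Il1rapl2, synaptic relatives of these chains, had 6 counts and 1 count in all.

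In RefSeq gene order, Il1r1, Il1rl2, Il1rl1, Il18r1 and Il18rap lie next to each other, and 4 of these 5 fell, with Il18r1 the exception. The ligand cluster of Il36g, Il36a, Il36b, Il36rn, Il1f10 and Il1rn holds 2 tested genes, Il36b and Il1rn, and both fell. Their gene models overlap, so reads in the overlap cannot be told apart. Il36b, and Il1rl2 in the receptor run, reached the filter's level of 0.24 CPM in 1 group only. The log2 fold changes within the receptor run differed widely, from -4.34 for Il1rl2 to -0.34 for Il18r1.

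The gamma chain group, which includes the receptors for interleukin-4 and interleukin-13, showed lower receptors beside 1 strongly higher ligand. Of 9 tested receptor chains 7 fell and 0 rose (0 also at an unadjusted p under 0.05, with DESeq2 and with limma). Il4r, shared by the receptors of both those ligands, was at 129, 132 and 127 CPM in untreated nerves and at 24.9, 24.3 and 28.9 CPM in conduit nerves. It had the smallest adjusted p of all 46 genes, since libraries of each group were nearly alike (-2.31 ± 0.12, adjusted p = 6.97e-05). Il2rg, the gamma chain itself, was at 22.7, 27.9 and 20.4 CPM untreated and at 4.45, 5.14 and 7.65 CPM in conduit nerves. Again no library crossed over (-2.04 ± 0.24, adjusted p = 0.000525). Il13ra1, the partner of Il4r outside blood cells, was at 15.9, 22.6 and 18.4 CPM untreated and at 5.91, 5.93 and 9.90 CPM in conduit nerves. Conduit replicate 3 was nearest to the untreated range (-1.39 ± 0.25, adjusted p = 0.00342). Il13ra2, a decoy for interleukin-13, was at 1.47, 2.40 and 1.89 CPM untreated and at 1.02, 0.650 and 0.969 CPM in conduit nerves. Its libraries were close to touching (-1.12 ± 0.36, adjusted p = 0.0323), and its call was lost in 7 of 15 alternatives, for example at -0.93 and adjusted p = 0.125 without conduit replicate 2.

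Of 4 tested receptor chains best known from lymphocytes, Il2rb and Il15ra fell, while Il7r and Il2ra did not pass. Il2rb, shared by the receptors for interleukin-2 and interleukin-15, was at 4.06, 2.16 and 3.06 CPM untreated and at 0.412, 0.819 and 0.471 CPM in conduit nerves. All conduit libraries were under 1 CPM (-2.44 ± 0.42, adjusted p = 0.00258). Il15ra, which presents interleukin-15 to neighbouring cells, was at 1.68, 0.949 and 1.01 CPM untreated and at 0.385, 0.254 and 0.576 CPM in conduit nerves. Untreated replicate 1 was the highest (-1.58 ± 0.46, adjusted p = 0.0239), and the call was lost without it (adjusted p = 0.0807) or without conduit replicate 1 or 2 (0.0741 and 0.0849). Il7r, the receptor of interleukin-7 on T cells, was at 4.54 ± 1.14 and 2.33 ± 1.30 CPM (-0.96 ± 0.42, adjusted p = 0.0966). It passed as lower with library totals (-1.34, adjusted p = 0.0350), with the 3 limma fits and without conduit replicate 3 (-1.48, adjusted p = 0.0170). Il2ra, the high-affinity chain for interleukin-2, was at 0.600 ± 0.264 and 0.582 ± 0.485 CPM (adjusted p = 0.969), and Il9r had 41 counts in all and was not tested.

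Il21 and its receptor went opposite ways. Il21, a ligand that T cells are best known to make, was at 0.432, 0.666 and 0.598 CPM in untreated nerves and at 5.22, 4.44 and 2.98 CPM in conduit nerves. All conduit libraries lay far above the untreated ones (2.89 ± 0.35, adjusted p = 0.000605). Its log2 rise and that of Il25 (2.79 ± 0.66) were the largest of the 46 genes and did not differ beyond their SE. Il21r, its receptor on lymphocytes and macrophages, was at 9.46, 8.10 and 7.54 CPM untreated and at 0.907, 0.480 and 0.262 CPM in conduit nerves. No conduit library reached 1 CPM (-3.92 ± 0.44, adjusted p = 0.000435). The T and NK cell markers were lower in conduit nerves, with 10 of 12 tested falling and sums of 40.7 to 75.2 CPM against 196 to 283 CPM. That list mixes genes of T cells and NK cells and does not single out the cells that make Il21. Which cells held the Il21 RNA was not tested. Cd4, which rat macrophages also carry, made up 84.2% to 93.4% of the conduit sums and 43.3% to 79.4% of the untreated ones. Without Cd4 the sums were 4.95 to 6.56 CPM against 58.2 to 149 CPM. Cd8a was the largest part of these untreated sums, at 68.7 ± 40.4 CPM against 0.695 ± 0.259 CPM in conduit nerves (-6.63 ± 0.57). Cd3e fell less (-2.1 ± 0.34), and Cd3g did not pass (-0.88 ± 0.42, adjusted p = 0.121). Il21r lies next to Il4r in RefSeq gene order and Il21 next to Il2, which had no count.

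The other ligands of the group were low. Il7, a survival factor for T cells, was at 0.992 ± 0.303 CPM in untreated and 0.437 ± 0.0168 CPM in conduit nerves (-1.18 ± 0.39, adjusted p = 0.0390). That call was lost in 8 of 13 alternatives, among them DESeq2 (adjusted p = 0.0503). Il15 was at 6.54, 3.13 and 5.04 CPM untreated and at 3.82, 3.90 and 4.03 CPM in conduit nerves, inside the untreated range (-0.32 ± 0.30, adjusted p = 0.401). Il13 had 1 count in all, and Il2, Il4 and Il9 had none, so the ligands of Il4r were not detectable at this depth. In the beta chain group Il3ra, the receptor chain for interleukin-3, was at 18 ± 5.25 and 13.3 ± 3.28 CPM (-0.43 ± 0.27, adjusted p = 0.217). It passed with library totals (-0.82, adjusted p = 0.0270), with limma on filtered FPKM and without untreated replicate 2 (-0.65, adjusted p = 0.0471). Il5ra had 11 counts, and Il3 and Il5 had none.

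**Figure D2:**
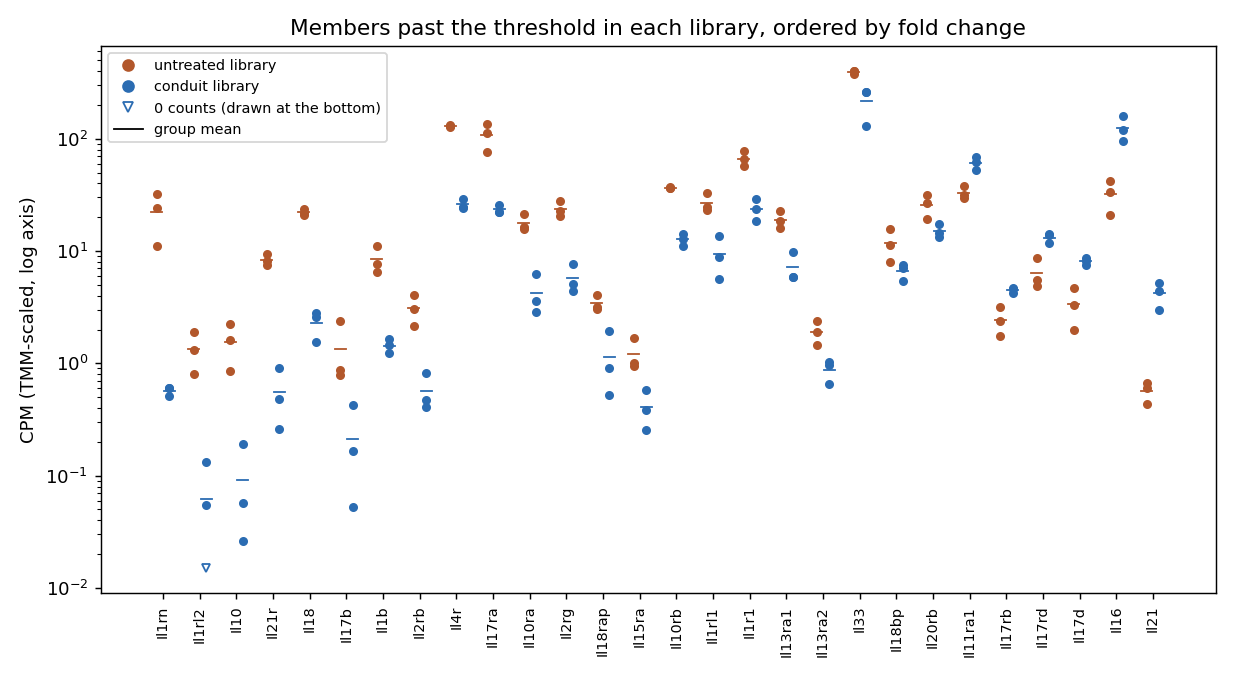
CPM (log axis) of the 28 interleukin genes that passed and reached 1 CPM in their higher group, with 1 point per library and a line at each group mean. The points of the groups do not overlap for any of the 28, and an open triangle at the bottom marks the conduit library with no Il1rl2 count.

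In the interleukin-10 family all 4 tested members fell, among them all 3 tested receptor chains. The fourth, Il10, reached the filter's level of 0.24 CPM in 1 group only, so a difference was built into its being tested. Il10, the ligand best known for restraining macrophages, was at 2.22, 0.848 and 1.61 CPM in untreated nerves and at 0.192, 0.0565 and 0.0262 CPM in conduit nerves. The conduit group held 10 counts in all, 7 of them in replicate 1 (-4.05 ± 0.72, adjusted p = 0.00309, and -5.13 without conduit replicate 1). Il10ra, its ligand-binding receptor, was at 21.4, 16.4 and 15.8 CPM untreated and at 2.86, 3.62 and 6.23 CPM in conduit nerves. Conduit replicate 3 was the highest of its group (-2.08 ± 0.31, adjusted p = 0.00143). Il10rb, the shared second chain, was at 36.1, 37.1 and 36.3 CPM untreated and at 11.2, 12.8 and 14.1 CPM in conduit nerves. Libraries within each group were close (-1.53 ± 0.13, adjusted p = 0.000146). Il20rb, a chain of receptors for Il19, Il20 and Il24, was at 31.3, 19.4 and 26.6 CPM untreated and at 14.4, 17.5 and 13.4 CPM in conduit nerves. Untreated replicate 2 lay just above the conduit range (-0.78 ± 0.20, adjusted p = 0.0161), and the call was lost without conduit replicate 1 (0.0604) or 3 (0.0621). Its ligands Il19, Il20 and Il24 had no counts, nor did Il22, and Il20ra, Il22ra1 and Il22ra2 had 2, 2 and 23 counts.

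The interleukin-12 family was near the limit of detection. Il23a, the private subunit of interleukin-23, was at 0.307 ± 0.152 CPM in untreated and 0.985 ± 0.235 CPM in conduit nerves (1.68 ± 0.47, adjusted p = 0.0208). Its call was lost in 4 of 13 alternatives, when untreated replicate 1 (adjusted p = 0.0675), untreated replicate 2 (0.0582), conduit replicate 1 (0.0537) or conduit replicate 3 (0.0664) was left out. Il12b, the subunit that Il23a needs as partner, had 14 counts in untreated nerves and 1 in conduit nerves, and Il12a had 11 and 33. Il27 had 13 counts untreated and 0 in conduit nerves, none of them tested. Ebi3, its partner subunit, fell from 15.9 ± 5.83 to 0.787 ± 0.164 CPM (-4.33 ± 0.37, adjusted p = 0.000145). The receptor chains Il12rb1 (-0.37 ± 0.54, adjusted p = 0.599) and Il27ra (-0.91 ± 0.57, adjusted p = 0.218) did not pass, and Il12rb2 and Il23r had 23 and 3 counts.

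In the interleukin-17 family 4 of 8 tested members rose and 2 fell, while with limma on log2(FPKM + 1) 2 rose and 3 fell. Among the 4, Il25 reached the filter's level of 0.24 CPM in 1 group only. Il17ra, the chain common to receptors of the family, was at 136, 75.8 and 113 CPM in untreated nerves and at 25.6, 22.4 and 22.4 CPM in conduit nerves. The conduit libraries were nearly identical (-2.20 ± 0.22, adjusted p = 0.000252). None of its tested partner chains passed as lower. Il17rc, which pairs with Il17ra for Il17a and Il17f, was at 24.7, 17 and 23.8 CPM untreated and at 15.5, 16.6 and 17.6 CPM in conduit nerves. Those ranges overlap (-0.40 ± 0.17, adjusted p = 0.0903), and it passed as lower with library totals (-0.78, adjusted p = 0.00568), with the 3 limma fits and without untreated replicate 2 (-0.55, adjusted p = 0.0115). Il17rd, a chain also known to dampen fibroblast growth factor signals, was at 4.88, 5.47 and 8.65 CPM untreated and at 11.7, 14.2 and 13.8 CPM in conduit nerves. All conduit libraries were higher (1.06 ± 0.25, adjusted p = 0.00991), and the call was lost in 2 limma fits (adjusted p = 0.0501 with a pseudocount of 0.1 and 0.0811 without the filter). Il17re, the receptor chain for Il17c, was at 4.54 ± 1.29 and 8.29 ± 3.27 CPM (0.87 ± 0.35, adjusted p = 0.0715, and 0.0273 with DESeq2).

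Il17rb, the chain that binds Il17b and Il25, was at 3.18, 1.74 and 2.39 CPM in untreated nerves and at 4.26, 4.72 and 4.58 CPM in conduit nerves. The rise of 0.89 ± 0.29 passed (adjusted p = 0.0347) but lost its call in 10 of 15 alternatives, at 0.51 and adjusted p = 0.149 with library totals. Its gene model overlaps Chdh, choline dehydrogenase, which rose by 1.77 ± 0.21 (adjusted p = 0.000523), and Actr8 (0.10 ± 0.11, adjusted p = 0.493). The ligands of Il17rb moved apart. Il17b was at 0.864, 2.36 and 0.782 CPM untreated and at 0.165, 0.424 and 0.0524 CPM in conduit nerves. Untreated replicate 2 was well above the rest (-2.64 ± 0.78, adjusted p = 0.0247), and the call was lost without it (-1.94, adjusted p = 0.0738) or without conduit replicate 1 or 3 (0.0853 and 0.0613), with -3.58 without conduit replicate 2. Il25, an epithelial ligand, was at 0.0859 ± 0.0570 CPM untreated and 0.616 ± 0.287 CPM in conduit nerves (2.79 ± 0.66, adjusted p = 0.0104, and 3.44 without untreated replicate 1). It lies directly beside Cmtm5, a membrane protein of myelinating glia, which rose from 45.5 to 189 CPM (2.06 ± 0.34, adjusted p = 0.00220). Whether Cmtm5 reads were counted for Il25 was not tested.

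Il17d, a ligand of tissue cells, was at 3.33, 2.00 and 4.72 CPM in untreated nerves and at 7.45, 8.65 and 8.20 CPM in conduit nerves. Every conduit library was higher (1.27 ± 0.32, adjusted p = 0.0136). The T cell ligands Il17a and Il17f had 0 counts and 1 count, and Il17c had none.

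Il16, the CD4+ cell chemoattractant, was at 33.7, 20.8 and 42.2 CPM in untreated nerves and at 119, 158 and 95 CPM in conduit nerves. The lowest conduit library exceeded the highest untreated one (1.94 ± 0.29, adjusted p = 0.00151). Cd4, the receptor for the secreted part of its product, fell (-1.50 ± 0.36, adjusted p = 0.0105). Il11ra1, the receptor for interleukin-11, was at 31.8, 29.4 and 38 CPM untreated and at 52.4, 68.2 and 61.8 CPM in conduit nerves. The groups were again apart (0.88 ± 0.15, adjusted p = 0.00279). Il6r, the receptor for interleukin-6, was at 57.1 ± 9.35 and 51.0 ± 16.0 CPM (-0.16 ± 0.24, adjusted p = 0.594), and Il31ra was at 0.524 ± 0.383 and 0.518 ± 0.236 CPM (adjusted p = 0.991), with no count of its ligand Il31. Il4i1, which matched by name only, was at 1.18 ± 0.332 and 0.668 ± 0.216 CPM (-0.82 ± 0.40, adjusted p = 0.129, and 0.0386 with library totals). It overlaps the gene models of Atf5, which rose (1.08 ± 0.17), and Nup62, which fell (-0.85 ± 0.12).

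**Figure D3:**
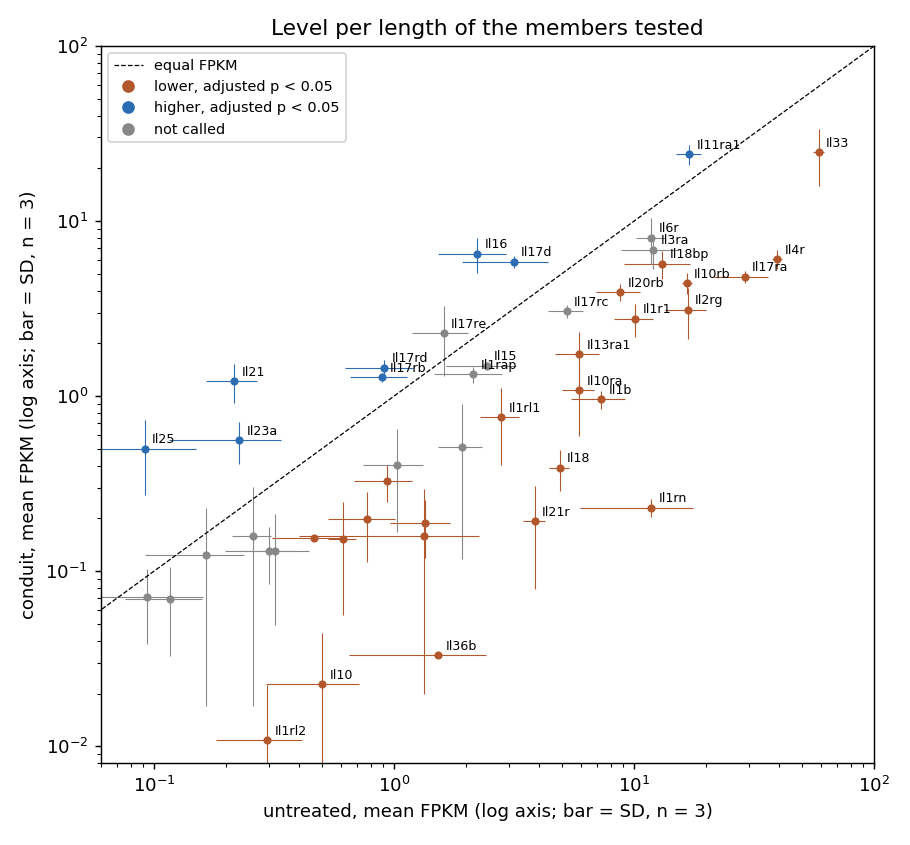
Mean FPKM in untreated (x) and conduit nerves (y), both on log axes, for the 46 genes tested, with bars of 1 SD (n = 3) cut short where they would reach 0 and colours for the edgeR calls. Il33 was highest in both groups, Il4r and Il17ra were next in untreated nerves at 39.4 and 28.9 FPKM, and Il11ra1 and Il6r were next in conduit nerves at 24.0 and 8.05 FPKM.

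Levels of different genes were compared per length, as FPKM, which the authors scaled by library totals and not by TMM. In untreated nerves the order was led by Il33 (58.7 ± 3.19 FPKM), Il4r (39.4 ± 1.97) and Il17ra (28.9 ± 7.31). Il11ra1 (17 ± 2.07), Il2rg (16.7 ± 3.23) and Il10rb (16.6 ± 0.745) came next and did not differ beyond their spread. In conduit nerves Il33 (24.8 ± 8.86 FPKM) and Il11ra1 (24.0 ± 3.05) led, and their levels were not apart. Il6r (8.05 ± 2.37), Il3ra (6.84 ± 1.54), Il16 (6.52 ± 1.5), Il4r (6.07 ± 0.774), Il17d (5.86 ± 0.445) and Il18bp (5.71 ± 1.04) followed within overlapping spreads. Il16 thus stood 22nd in untreated and 5th in conduit nerves, and Il1rn 9th and 31st.

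Other genes of the interleukin pathways were taken from lists chosen with earlier results of these data known. Their shares beside all genes tested are therefore descriptions only. Of 10 genes listed for the maturation and release of interleukin-1 and interleukin-18, 8 fell and 1 rose. That is 80.0% lower, beside 26.2% of all genes tested. Nlrp3, an inflammasome sensor, fell from 16.3 ± 1.65 to 1.97 ± 0.494 CPM (-3.05 ± 0.23, adjusted p = 0.000117). Pycard, its adaptor (-2.33 ± 0.21), and Ninj1, which ruptures the membrane of dying cells (-2.43 ± 0.16), fell as well. Nek7, a kinase needed by Nlrp3, rose by 0.44 ± 0.15 (adjusted p = 0.0397) and lost its call in 10 of 16 alternatives, at 0.05 and adjusted p = 0.794 with library totals. The median of the list was -1.85, beside -0.04 over all genes.

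Of 22 genes that carry the interleukin-1 and Toll signal, 8 fell and 1 rose, with a median of -0.15. That is 36.4% lower, beside 26.2% of all genes tested. Sigirr, a receptor that restrains the pathway (-1.54 ± 0.17), Irak4, its first kinase (-1.05 ± 0.15), and Myd88, the adaptor (-1.08 ± 0.14), fell. Tab1, a partner of the TAK1 kinase, rose (0.81 ± 0.17, adjusted p = 0.00577) and lost its call with limma on unfiltered FPKM (0.0652). Without conduit replicate 1, 5 fell, and with library totals 13 did.

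Of 17 JAK, STAT and feedback genes 6 (35.3%, beside the same 26.2%) fell and 0 rose (0 also at an unadjusted p under 0.05, with DESeq2 and with limma). Jak3, the kinase that binds the gamma chain, fell from 22.1 ± 3.18 to 4.71 ± 1.00 CPM (-2.23 ± 0.21, adjusted p = 0.000214). Ptpn6, a phosphatase of blood cells (-2.35 ± 0.21), and Socs3, a feedback inhibitor (-2.03 ± 0.21), also fell. Stat6, the factor used by Il4r, was at 71.4 ± 18.7 and 75.4 ± 13.2 CPM (0.08 ± 0.22, adjusted p = 0.789), a gene picked here for its link to Il4r. With library totals 11 of the list fell.

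Of 11 tested genes known to be induced by interleukin-4 and interleukin-13, 3 fell and 0 rose. That is 27.3% lower, close to the 26.2% of all genes tested (of higher genes there was 1 at an unadjusted p under 0.05, and 0 with DESeq2 or limma). Arg1, arginase (-3.62 ± 0.40), Mrc1, the mannose receptor (-3.04 ± 0.47), and Tgm2, a transglutaminase (-0.79 ± 0.20), fell, and with library totals 5 of the list did. Of 10 interleukin-type chains with other names 7 (70.0%, beside the same 26.2%) fell and 1 rose. They included Ebi3, Csf2rb, the beta chain (-1.78 ± 0.15), and Clcf1, a ligand of the CNTF receptor (-6.39 ± 0.26). Lifr, the receptor for leukaemia inhibitory factor, rose (1.44 ± 0.19, adjusted p = 0.000920).

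**Figure D4:**
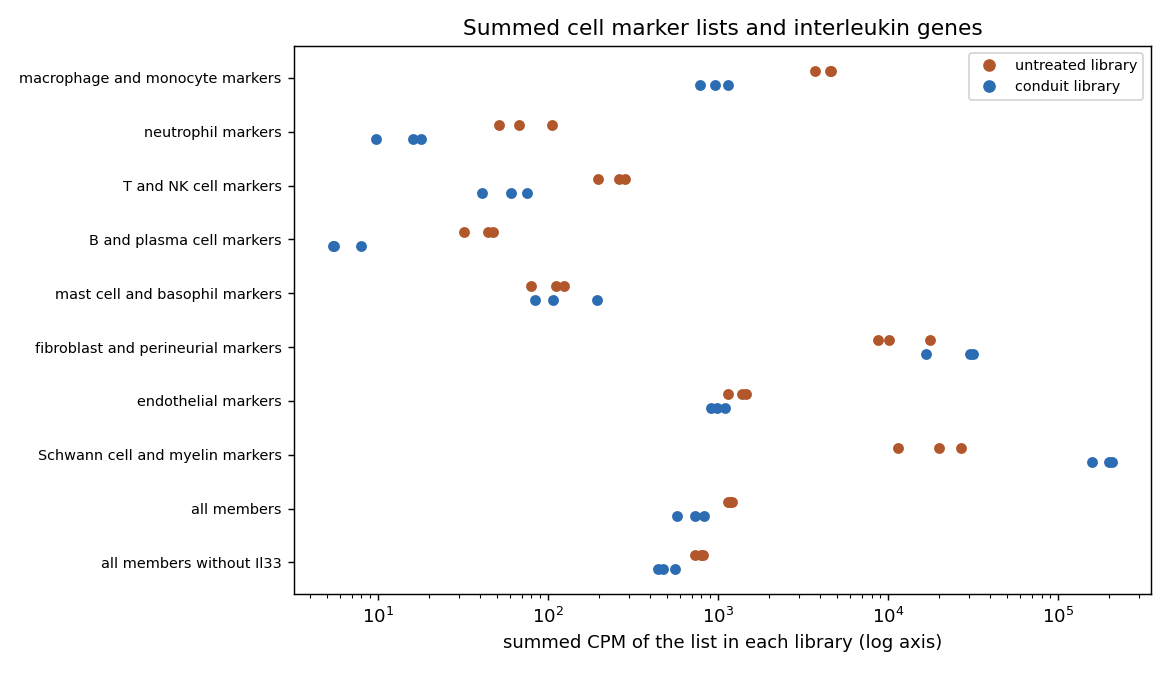
Summed CPM (log axis) of cell marker lists and of the interleukin genes ("all members") in each library, 3 untreated and 3 conduit. Macrophage, neutrophil, T and NK cell and B cell sums are lower in every conduit library than in any untreated one, while the mast cell sums overlap.

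Many markers of blood-derived cells fell in conduit nerves, as did many of these receptors. In bulk nerve, fewer cells of a type and less RNA per cell cannot be told apart. Of 18 macrophage and monocyte markers 16 fell, with sums of 3735 to 4652 CPM untreated and 781 to 1140 CPM in conduit nerves, and none was at 0 in either group. The exceptions, Laptm5 (-0.58 ± 0.23) and Mertk (0.59 ± 0.23), did not pass. Of 6 neutrophil markers tested 4 fell, with sums of 51.6 to 106 CPM and 9.76 to 18 CPM, and Ltf was at 0 in both groups. Of 5 B and plasma cell markers tested 4 fell, with sums of 32.1 to 47.8 CPM and 5.47 to 7.99 CPM. Mast cell and basophil markers, cells that carry much Il1rl1, had 1 of 9 higher and 0 lower (0 also at an unadjusted p under 0.05, with DESeq2 and with limma), with sums of 79.1 to 124 CPM and 84.3 to 194 CPM. The summed interleukin genes were at 1138 to 1212 CPM untreated and 572 to 825 CPM in conduit nerves, or 735 to 813 CPM and 443 to 562 CPM without Il33. All 10 proliferation markers fell too, with sums of 280 to 397 CPM untreated and 14.7 to 26.4 CPM in conduit nerves. Of 8 adipocyte markers 2 rose, and their sums overlapped, at 482 to 1435 CPM and 514 to 2266 CPM. The part of each cell type and of proliferation in the interleukin values was not tested.

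The conduit libraries differed among themselves in several receptors. Il2ra was at 0.137, 0.509 and 1.1 CPM in conduit replicates 1, 2 and 3, Il18r1 at 0.192, 0.537 and 1.36 CPM, and Il27ra at 0.165, 0.367 and 0.628 CPM. Replicate 1 was the lowest and replicate 3 the highest in each of these, which were picked after their values were seen. Over the 46 tested genes 15 had that order in the conduit libraries, 5 had the opposite one (Il10, Il1rap, Il21, Il21r and Il25), and the other 26 had neither. The macrophage marker sums were at 781, 957 and 1140 CPM in conduit replicates 1, 2 and 3, and the T and NK cell sums without Cd4 at 6.43, 6.56 and 4.95 CPM. In the same order the adipocyte sums were at 514, 623 and 2266 CPM and the mast cell sums at 107, 84.3 and 194 CPM. The Schwann cell and myelin sums were at 199319, 206500 and 158696 CPM. The part of these differences in the receptor values was not tested. Each conduit replicate carries a batch number of its own.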

How the data were processed

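RNA sequencing counts of 3 untreated and 3 conduit libraries were analysed, grouped by sample title. The authors deposited raw counts per gene and FPKM values per library. The tools named, per the submitters' processing notes, are HTSeq, HISAT2, fastp and DESeq2, and the build is mRatBN7.2, without versions or roles. Dividing each count by a gene's length and its library's total gave the deposited FPKM in all 20504 genes checked (tolerance 0.0001). Counts were tested with edgeR 4.0.16 (R 4.3.3; quasi-likelihood F test, two-sided, TMM, filterByExpr with a minimum count of 10, group only), and 15464 genes were adjusted together. For the SE, the log2 fold change was divided by the root of its F value. The procedure was tested on simulated data. No molecular identifiers are named in the protocols. The interval given for Il36b covers the counting error of its conduit counts alone.

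Also run were no filter, RLE scaling, library totals, DESeq2 1.42.0, a filter of 5 CPM in 3 libraries, a replicate block, robust dispersions, limma 3.58.1 on log2(FPKM + 1) or log2(FPKM + 0.1) for genes at 0.5 FPKM in 3 libraries, the former also unfiltered, and each library left out. Log2(FPKM + pseudocount) understates changes of low genes.

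The members and gene lists were chosen with earlier results of these data known. Per-library values are given for genes that passed and reached 1 CPM in the higher group, and group means for the others tested. Up to 3 genes per direction with the smallest adjusted p are named from each pathway list. Stat6 and the neighbours of members were added after their values were seen. Chil3, Trac, Mcpt1 and Mylpf had no row of that symbol. Gene order and overlaps come from RefSeq on GRCr8, which is not the build of the notes, and all 77 symbols matched there.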

Additional observations from a re-analysis of the deposited data

How the results depend on the processing

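Of the 32 interleukin genes that passed, 21 (16 lower and 5 higher) kept their call under every one of the 16 alternatives that tested them, 11 lost it under at least 1, and none changed sign. DESeq2 called 31 of the 32. Of the 14 that did not pass, 7 passed under at least 1 alternative. The number of interleukin genes lower was 15 and the number higher 4 with the 5 CPM filter, which tests fewer genes, and the number higher was 5 with limma on log2(FPKM + 1) and 4 on log2(FPKM + 0.1). Leaving out 1 library gave 17 to 22 lower and 6 to 7 higher. Without untreated replicate 1 they were 20 and 7. The median log2 fold change was -1.31 with library totals, -1.11 with the 5 CPM filter, -1.55 with limma on log2(FPKM + 0.1), -0.28 with limma on unfiltered FPKM, and -1.20 to -0.69 with 1 library left out (-0.69 without conduit replicate 1). In the interleukin-1 and Toll signal list the number lower was 13 with library totals and in both filtered limma fits, and 5 to 8 with 1 library left out. The number higher was 3 with DESeq2, 2 with RLE scaling, 2 with a replicate block, 0 with limma on unfiltered FPKM, and 1 to 3 with 1 library left out. In the maturation list the 1 gene higher, Nek7, was 0 with library totals, no filter, a replicate block or limma, and 0 to 1 with 1 library left out. The JAK-STAT list had 11 lower with library totals and 12, 13 and 13 in the limma fits, and 5 to 7 with 1 library left out. The list induced by interleukin-4 and interleukin-13 had 5 lower with library totals and 5 and 6 in the filtered limma fits, and 3 to 4 with 1 library left out. Genes near no change crossed 0. Il31ra was at 0.01 with DESeq2 and with RLE scaling and 0.07 with a replicate block. With 1 library left out Il31ra ranged from -0.29 to 0.77, Il2ra from -0.85 to 0.44, Il18r1 from -1.23 to 0.12 and Il6r from -0.42 to 0.04. The cause of these moves was not tested.

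Replicate numbers are shared by the groups, but the labels do not say that they pair samples. Deviations of same-numbered libraries correlated at 0.144, -0.0278 and 0.0636, and those of differently numbered ones at -0.147 to 0.103. With 3 libraries in each group these values cannot decide whether the numbers pair samples. With a replicate block 21 interleukin genes were lower and 7 higher. Counts were too low to test 31 genes, 15 of them with no count in any library. Whether depth or lack of expression lies behind this was not tested. Il10, Il1rl2, Il36b and Il25 rest on few counts in 1 group.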
